A study of Mus musculus with 27 samples.

Results

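A set of 10 genes that maintain, copy and transcribe mitochondrial DNA (mtDNA) or regulate mitochondrial gene expression was followed across every group of the study: Polg, Polg2, Twnk, Ssbp1, Polrmt, Tfam, Tfb2m, Nrf1, Ppargc1b and Esrra. They were listed by gene name, and all 10 were found among the 55401 genes of the table and passed the filter on low counts. RNA of 4T1 cells, a mouse mammary carcinoma line, was sequenced after poly-A selection in 27 libraries, 3 for each of 9 groups. The knockout arm held parental 4T1 cells, labelled wild type, and 6 CRISPR-Cas9 knockout clones of the same line. Clones gs1B8 and gs2_B4 lack Drp1 (gene Dnm1l), the GTPase that divides mitochondria, clones gs1_B11 and gs2_F6 lack Fis1, and clones gs1_B4 and gs1_C8 lack Mff, Fis1 and Mff being adaptor proteins of the outer mitochondrial membrane. The drug arm held wild-type 4T1 cells kept for 3 days with leflunomide (group Leflu), an inhibitor of the pyrimidine enzyme dihydroorotate dehydrogenase, or with its vehicle DMSO, at a dose not given in the sources used here. Each clone is 1 line grown from edited cells, so within a single clone the knockout and the clone's own history cannot be told apart. The labels do not say whether the 3 libraries of a group came from separate cultures, and the p-values measure the spread between libraries, which may be technical.

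Mitochondrial DNA is a small circular genome that lies in many copies in the cell and encodes a few subunits of the respiratory chain. It is copied by a dedicated replisome, in which the helicase Twinkle (Twnk) opens the double strand, DNA polymerase gamma (catalytic subunit Polg, accessory subunit Polg2) copies it and the protein encoded by Ssbp1 covers the single strand. The RNA polymerase Polrmt transcribes it with the packaging and initiation factor Tfam and the promoter-melting factor Tfb2m, and its transcripts also prime replication. In the nucleus, the transcription factors NRF1 and ERR alpha (Esrra) and the coactivator PGC-1 beta (Ppargc1b) act on promoters of genes for mitochondrial proteins.

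Library totals ran from 18492020 to 31295937 counts. The 45S ribosomal RNA precursor took 23.2% of the counts of DMSO replicate 3 and 1.60% to 5.72% of the other 26 libraries. Each targeted transcript was below parental in its own clones: Dnm1l stood at 31.2% of parental in gs1B8 and at 18.7% in gs2_B4, Fis1 at 44.3% in gs1_B11 and 36.1% in gs2_F6, and Mff at 54.4% in gs1_B4 and 49.6% in gs1_C8. Dhodh, whose protein leflunomide inhibits, stood at 17.4 ± 1.14 CPM (SD, n = 3) with DMSO and at 14.7 ± 1.05 CPM with Leflu, which is no check of the drug. Of 6 epithelial markers, 5 were above 1 CPM in every library and the sixth, Cldn7, ran from 0 to 13.1 CPM. The summed markers of fibroblasts (2.25 to 8.16 CPM), leukocytes (0.665 to 9.10 CPM), endothelium, adipocytes and muscle (all at or below 0.469 CPM) stayed low beside the epithelial sum of 1370 to 2770 CPM. Among them Pdgfra (up to 8.05 CPM) and Csf1r (up to 8.95 CPM) carried most of the fibroblast and leukocyte sums, and Lum, Adgre1, Cd3e, Cidec and Ckm were at 0 in every library.

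Short stretches of 6 promoters are shown first because they hold the letters of the binding motif of NRF1, the product of 1 of the 10 genes, or of the ETS factor GABP. The RefSeq promoter table (build GRCm38.p6, 250 bases before to 50 after each start) held 11 windows for 9 of the 10 genes. The letters searched on both strands were GCGCANGCG for NRF1, CCGGAAGT for GABP, TCAAGGTCA for the ERR element and AAGATGGCG for YY1. Capitals mark the match, as it reads on the gene's own strand.
Polg, GABP, chr7:79466294-79466321, minus strand: aggacctcacCCGGAAGTccctctgcac
Twnk, GABP, chr19:45006437-45006464, plus strand: ctaaccggtgACTTCCGGttccggggtt
Polrmt, NRF1, chr10:79746565-79746593, minus strand: caggcggCGCGTGCGCGTGCGCactgcgg
Tfam, GABP, chr10:71238074-71238101, minus strand: ctgccgcggaCCGGAAGTccgggcttcc
Tfb2m, NRF1, chr1:179546246-179546274, minus strand: ctaggtcgttCGCATGCGCcattcgtaat
Esrra, NRF1, chr19:6921931-6921959, minus strand: acaggaggccGCGCACGCGtgtgtatcga

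The NRF1 letters were in 3 of the 11 windows (Polrmt, Tfb2m and Esrra), against 6.25% of all 32851 windows of the table. The GABP letters were also in 3 windows (Polg, Tfam and Twnk), against 3.89% of all. The ERR letters were in 0 of the 11 windows (0.423% of all) and the YY1 letters in 0 (1.40% of all). In Polrmt, 2 NRF1 matches overlapped each other across the start of the transcript. In Twnk the match lay before a start inside the annotated gene, in an exon of Mrpl43, the gene on the other strand. The stretches of Polg, Polrmt, Tfam and Tfb2m overlapped exons of their own genes. These are matches of letters in fixed windows and no measure of binding.

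In parental cells the genes differed widely in abundance. Per kilobase of the mean coding transcript (GENCODE M21, basic set), Tfam stood highest at 38.4 ± 1.9 CPM per kb (SD, n = 3), followed by Ssbp1 at 33.4 ± 2.1, Tfb2m at 21.5 ± 1.0, Nrf1 at 18.8 ± 0.55 and Twnk at 17.8 ± 0.90 CPM per kb. Polg (8.05 CPM per kb), Esrra (7.18), Polg2 (5.42) and Polrmt (4.19) lay lower. By this length the abundant genes held the packaging factor and the single-strand binding protein. The scarce ones held both subunits of the DNA polymerase and the RNA polymerase. The order at the top depends on the length chosen, which the SDs leave out. The longest coding transcripts of Tfam and Ssbp1 have 4167 and 4398 bases, against means of 1948 and 1896. Per kilobase of the longest, both would lie below Tfb2m. Ppargc1b lay lowest at 0.370 CPM per kb, which rests on 24 to 38 counts per parental library.

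**Figure D1:**
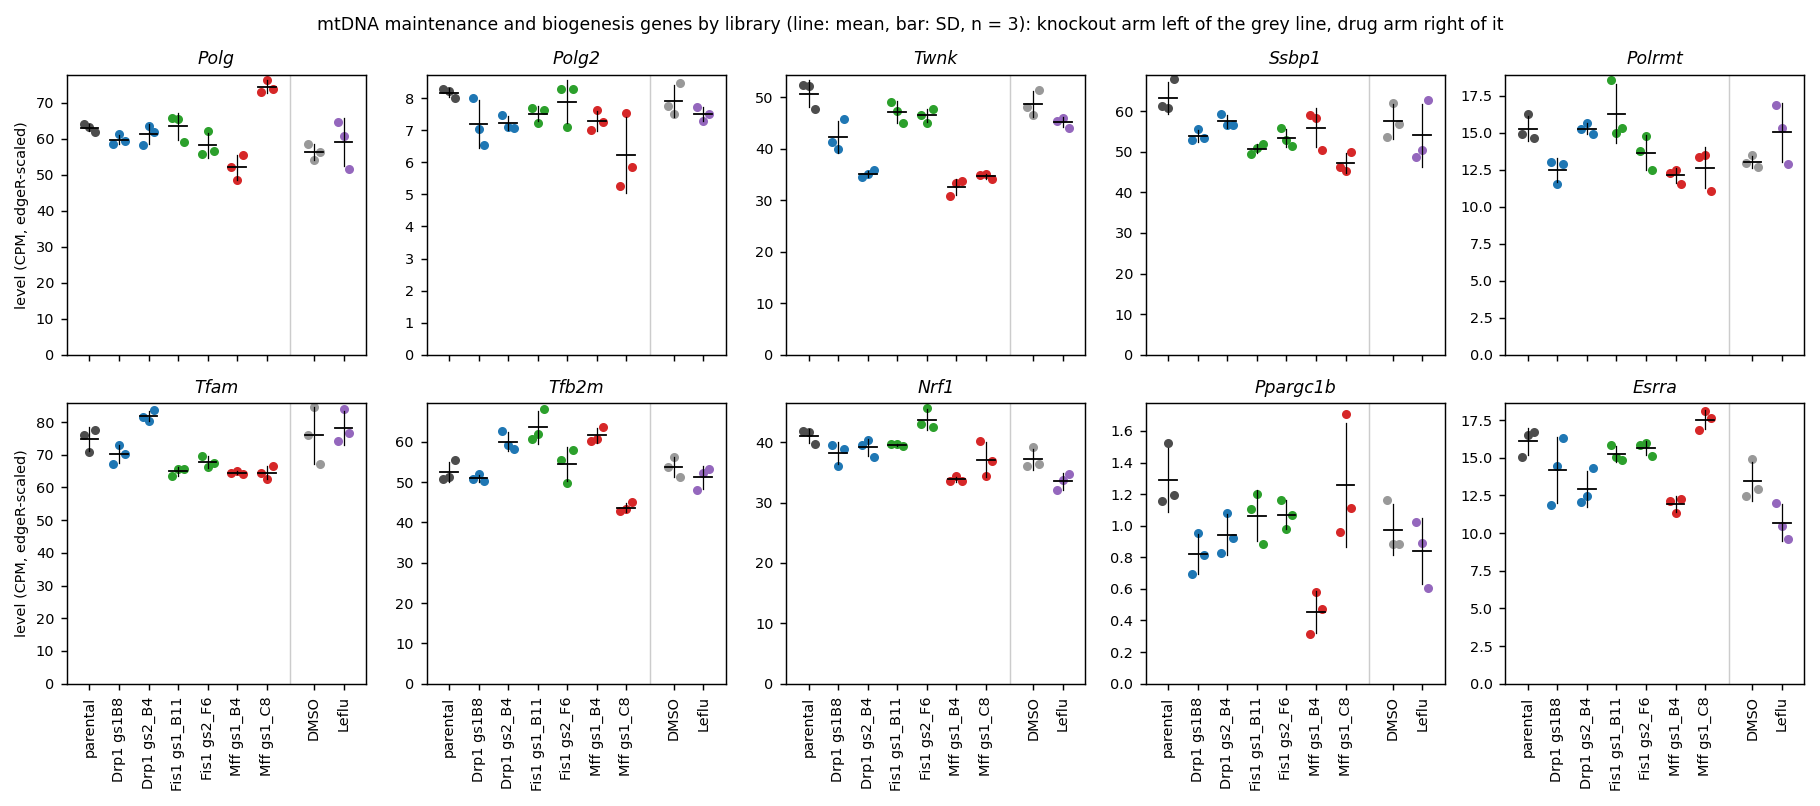
Level (CPM scaled by edgeR, linear axes from 0) of each of the 10 genes in all 27 libraries, as points, with the group mean (horizontal line) and SD (vertical line, n = 3). Twnk is lowest in clones gs2_B4, gs1_B4 and gs1_C8, and Ssbp1 is below the parental libraries in all 18 clone libraries.

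Against parental cells, most of the changes were decreases of modest size. Over the 10 genes and 6 clones, 29 of 60 comparisons passed the test (edgeR's quasi-likelihood F test, Benjamini-Hochberg adjusted p below 0.05 over all 13940 genes tested, two-sided), 24 of them lower and 5 higher, and 50 of the 60 estimates lay below 0. The background is broad: the percentage of all tested genes that passed was 29.5 in gs1B8, 50.3 in gs2_B4, 47.3 in gs1_B11, 31.3 in gs2_F6, 47.7 in gs1_B4 and 46.7 in gs1_C8. Of the 10 genes, 3 passed in gs1B8 (0 higher), 4 in gs2_B4 (2 higher), 3 in gs1_B11 (1 higher), 2 in gs2_F6 (0 higher), 9 in gs1_B4 (1 higher) and 8 in gs1_C8 (1 higher). In the Drp1 and Fis1 clones these shares are near or under those of all genes, and in both Mff clones they are above them. The median log2 fold change of the 10 genes was -0.18 in gs1B8, -0.10 in gs2_B4, -0.09 in gs1_B11, -0.12 in gs2_F6, -0.28 in gs1_B4 and -0.24 in gs1_C8, where the median of all tested genes lay between -0.02 and 0.00. Clone libraries that lie clear of all the parental ones are also common. Of all tested genes, 44.6% did not overlap parental in gs1B8, 57.6% in gs2_B4 and 54.5% in gs1_B11. The share was 42% in gs2_F6, 51.6% in gs1_B4 and 54.3% in gs1_C8. Of the 10 genes, 7 lay all below and 0 all above in gs1B8, 5 and 2 in gs2_B4, and 3 and 1 in gs1_B11. These numbers were 3 and 1 in gs2_F6, 9 and 1 in gs1_B4 and 6 and 2 in gs1_C8. The 6 comparisons share the same 3 parental libraries, so they are not independent of each other. In bulk libraries a lower level in every cell and fewer cells with the transcript cannot be told apart.

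**Figure D2:**
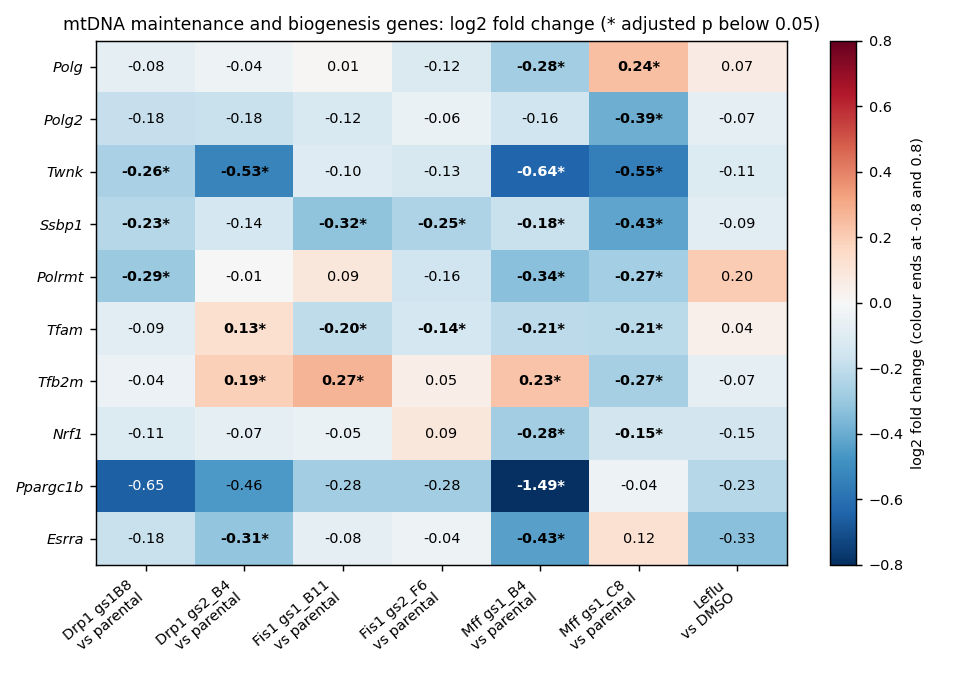
Log2 fold change of each gene in each clone against parental cells and with Leflu against DMSO, by colour and number, with a star where the adjusted p was below 0.05. The Mff clones gs1_B4 and gs1_C8 carry 9 and 8 stars, and the Leflu column carries 0.

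Twnk, the mitochondrial helicase (ENSMUSG00000025209.5, GRCm38 chromosome 19, 45005663 to 45012762, plus strand), changed most among the well-expressed genes. Its parental libraries stood at 52.2, 52.1 and 47.7 CPM. The Drp1 clones stood at 41.2, 39.9 and 45.7 CPM (gs1B8) and at 34.6, 35.0 and 35.8 CPM (gs2_B4), the Mff clones at 30.8, 33.3 and 33.6 CPM (gs1_B4) and at 34.8, 35.0 and 34.1 CPM (gs1_C8). All 12 of these libraries lay below every parental library. Twnk fell by 0.26 ± 0.05 on the log2 scale (SE) in gs1B8 (adjusted p = 0.00086), by 0.53 ± 0.05 in gs2_B4 (8.3e-08), by 0.64 ± 0.05 in gs1_B4 (9.5e-09) and by 0.55 ± 0.05 in gs1_C8 (7.6e-08), so that gs1_B4 kept 64.4% of the parental level. In the Fis1 clones it stood at 49.1, 47.3 and 45.0 CPM (gs1_B11) and at 46.6, 45.0 and 47.6 CPM (gs2_F6), and the first of these overlapped the parental libraries. Its log2 fold change there was -0.10 ± 0.05 (adjusted p = 0.12) and -0.13 ± 0.05 (adjusted p = 0.076). Without parental replicate 3 both passed, with adjusted p of 0.042 and 0.029.

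The exons of Twnk share 507 bases with Mrpl43, which encodes a mitochondrial ribosomal protein on the opposite strand, and the counting is not stated to use strand, so reads of the shared bases cannot be assigned with certainty. Mrpl43, looked at after the values of Twnk were seen, moved with it in part. Its level was 43.6 ± 2.1 CPM in parental cells, 39.8 ± 1.1 in gs1B8, 31.2 ± 1.7 in gs2_B4, 37.9 ± 0.7 in gs1_B4 and 37.0 ± 1.5 in gs1_C8 (SD, n = 3 each). Mrpl43 fell by 0.13 in gs1B8, 0.48 in gs2_B4, 0.20 in gs1_B4 and 0.24 in gs1_C8 on the log2 scale, with adjusted p between 7.1e-08 and 0.046. In the Fis1 clones its log2 fold changes were 0.07 and 0.09 and did not pass. The part of shared reads in the Twnk values was not tested.

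Ssbp1, which encodes the mitochondrial single-strand binding protein (ENSMUSG00000029911.14, chromosome 6, 40471352 to 40484700), was the most evenly lowered. The parental libraries stood at 61.3, 60.8 and 67.8 CPM, and all 18 clone libraries lay below them, between 45.3 and 59.3 CPM. The Fis1 clones stood at 49.5, 50.8 and 51.9 CPM (gs1_B11) and at 55.9, 52.8 and 51.5 CPM (gs2_F6). The Mff clones stood at 59.0, 58.3 and 50.5 CPM (gs1_B4) and at 46.2, 45.3 and 50.02 CPM (gs1_C8). Ssbp1 passed the test in 5 of 6 clones, and fell by 0.43 ± 0.06 on the log2 scale in gs1_C8 (adjusted p = 6.5e-06), 0.32 ± 0.06 in gs1_B11 (0.00016), 0.25 ± 0.06 in gs2_F6 (0.0029), 0.23 ± 0.06 in gs1B8 (0.0051) and 0.18 ± 0.06 in gs1_B4 (0.016). In gs2_B4 it stood at 59.3, 56.6 and 56.6 CPM, a log2 fold change of -0.14 ± 0.06 that missed the threshold (adjusted p = 0.054). The call in gs1_B4 was lost without parental replicate 3 and without gs1_B4 replicate 3, where the adjusted p reached 0.11, and with no low-count filter, in a fit of this clone and parental cells alone or with all 27 libraries in 1 fit (up to 0.15), while gs2_B4 passed without parental replicate 2 (0.047). A near-identical copy, Gm12115 (97.8% identity over 447 bases), stood at most at 0.197 CPM in any library.

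Polg, the catalytic subunit of the polymerase (ENSMUSG00000039176.17, chromosome 7, 79446231 to 79466362, minus strand), went opposite ways in the Mff clones. It stood at 64.0, 63.3 and 61.9 CPM in parental cells, at 52.1, 48.6 and 55.5 CPM in gs1_B4 and at 72.9, 76.5 and 73.9 CPM in gs1_C8, with no overlap among the 3 groups. Polg fell by 0.28 ± 0.06 on the log2 scale in gs1_B4 (adjusted p = 0.00033) and rose by 0.24 ± 0.05 in gs1_C8 (0.0012). In the Drp1 and Fis1 clones its means ran from 58.2 to 63.5 CPM and none passed. Fanci, a DNA repair gene that shares 921 exonic bases with Polg on the opposite strand, had group means between 16.6 and 18.8 CPM in the knockout arm, with single libraries from 14.5 to 19.9 CPM, and passed in none of the clones. The part of shared reads in the Polg values was not tested.

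Polg2, the accessory subunit (ENSMUSG00000020718.12, chromosome 11, 106768253 to 106779537), stood at 8.27, 8.22 and 8.01 CPM in parental cells and was highest there by its mean. It passed in gs1_C8, at 5.27, 7.55 and 5.86 CPM, where it fell by 0.39 ± 0.11 on the log2 scale (adjusted p = 0.0063). That call was lost without gs1_C8 replicate 1 (adjusted p = 0.059). In the other 5 clones the means lay between 7.19 and 7.88 CPM, the log2 fold changes between -0.18 and -0.06, and the adjusted p between 0.18 and 0.75. Polg and Polg2, which form 1 enzyme, thus moved in different directions in gs1_C8.

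Of the transcription proteins, Tfam (ENSMUSG00000003923.14, chromosome 10, 71225464 to 71238280, minus strand) was lower in both Fis1 clones and both Mff clones. The parental libraries stood at 76.0, 70.7 and 77.7 CPM. The Fis1 clones stood at 63.4, 65.8 and 65.6 CPM (gs1_B11) and at 69.6, 66.2 and 67.4 CPM (gs2_F6), the Mff clones at 64.5, 65.1 and 64.0 CPM (gs1_B4) and at 64.3, 62.7 and 66.7 CPM (gs1_C8). All 12 libraries lay below the lowest parental one. The log2 level of Tfam fell by 0.20 ± 0.04 in gs1_B11 (adjusted p = 0.00054), 0.14 ± 0.04 in gs2_F6 (0.014), 0.21 ± 0.04 in gs1_B4 (0.00033) and 0.21 ± 0.04 in gs1_C8 (0.00034). The call in gs2_F6 was lost without parental replicate 1, parental replicate 3 or gs2_F6 replicate 2, where the adjusted p reached 0.082, and with no low-count filter, in a fit of the clone and parental libraries alone or with all 27 libraries in 1 fit, where it reached 0.21.

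The Drp1 clones differed in Tfam. It stood at 67.3, 73.0 and 70.4 CPM in gs1B8, overlapping the parental libraries (log2 fold change -0.09 ± 0.04, adjusted p = 0.12), and at 81.5, 80.4 and 83.6 CPM in gs2_B4, above every other library of the knockout arm. The rise in gs2_B4 was 0.13 ± 0.04 (adjusted p = 0.014), and it was lost without parental replicate 2 or gs2_B4 replicate 3, where the adjusted p reached 0.11, and with no filter or all 27 libraries in 1 fit (up to 0.057). With TMM scaling the group means of Tfam ranged 1.27-fold (0.343 on the log2 scale) over the knockout arm, the narrowest range of the 10 genes, and 80.9% of the 9732 genes with a mean of at least 5 CPM ranged more widely. That place was lost with column totals, where the range of Tfam was 0.411 and those of Nrf1 and Polrmt were 0.279 and 0.315.

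Polrmt, the mitochondrial RNA polymerase (ENSMUSG00000020329.12, chromosome 10, 79736123 to 79746581), passed in 3 clones. It stood at 14.9, 16.3 and 14.7 CPM in parental cells, at 13.03, 11.6 and 12.9 CPM in gs1B8, at 12.3, 12.5 and 11.6 CPM in gs1_B4 and at 13.4, 13.5 and 11.1 CPM in gs1_C8. These 9 clone libraries lay below the parental ones. Polrmt fell by 0.29 ± 0.09 on the log2 scale in gs1B8 (adjusted p = 0.019), 0.34 ± 0.09 in gs1_B4 (0.0046) and 0.27 ± 0.09 in gs1_C8 (0.019). All 3 calls rested on parental replicate 2, the highest of the parental libraries: without it the adjusted p were above 0.05, as they were without gs1B8 replicate 2 and without gs1_C8 replicate 3, and they reached 0.11, 0.051 and 0.16. In gs2_B4, gs1_B11 and gs2_F6 its means were 15.3, 16.3 and 13.7 CPM and it did not pass.

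Tfb2m, the factor that opens mitochondrial promoters (ENSMUSG00000026492.11, chromosome 1, 179528055 to 179546267), was higher in 1 clone of each genotype. It stood at 50.8, 51.4 and 55.4 CPM in parental cells, at 62.8, 59.1 and 58.2 CPM in the Drp1 clone gs2_B4, at 60.6, 61.9 and 68.2 CPM in the Fis1 clone gs1_B11 and at 60.3, 60.8 and 63.7 CPM in the Mff clone gs1_B4. The 9 clone libraries lay above every parental library. Tfb2m rose by 0.19 ± 0.06 on the log2 scale in gs2_B4 (adjusted p = 0.0075), 0.27 ± 0.06 in gs1_B11 (0.00049) and 0.23 ± 0.06 in gs1_B4 (0.0021). The other Mff clone, gs1_C8, stood at 42.8, 43.2 and 45.0 CPM, below every other library of the knockout arm, and Tfb2m fell there by 0.27 ± 0.06 (adjusted p = 7e-04). In gs1B8 (51.0 ± 0.9 CPM) and gs2_F6 (54.5 ± 4.2 CPM) it overlapped the parental libraries. The copy Gm1818 (99.3% identity over 1187 bases) stood at most at 1.26 CPM, and 1500011B03Rik, which is 90.6% identical to Tfb2m over 223 bases, at most at 6.27 CPM. How their reads were split from those of Tfb2m is not stated.

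Of the nuclear regulators, all 3 were lower in the Mff clone gs1_B4, Nrf1 alone passed in the Mff clone gs1_C8, and Esrra alone in the Drp1 clone gs2_B4. Nrf1 (ENSMUSG00000058440.14, chromosome 6, 30047988 to 30153458) stood at 41.8, 41.7 and 39.7 CPM in parental cells, at 33.6, 34.4 and 33.6 CPM in gs1_B4 and at 40.2, 34.4 and 36.8 CPM in gs1_C8. It fell by 0.28 ± 0.05 on the log2 scale in gs1_B4 (adjusted p = 0.00022), where the libraries lay below all the parental ones. In gs1_C8 they overlapped, the change was -0.15 ± 0.05 (adjusted p = 0.031), and the call was lost with DESeq2 or its size factors, under 4 further settings and without any of 4 single libraries, where the adjusted p reached 0.20. In the Drp1 and Fis1 clones the means ran from 38.2 to 43.8 CPM and none passed. Nrf1 here is nuclear respiratory factor 1, a gene distinct from Nfe2l1, which shares the abbreviation.

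Ppargc1b, the coactivator PGC-1 beta (ENSMUSG00000033871.14), had the largest single decrease and the weakest counts. It stood at 1.15, 1.52 and 1.20 CPM in parental cells (24, 38 and 26 counts) and at 0.315, 0.578 and 0.475 CPM in gs1_B4 (8, 16 and 13 counts), with no overlap. Ppargc1b fell by 1.49 ± 0.27 on the log2 scale in gs1_B4 (adjusted p = 0.00013), to 35.6% of parental. In the other Mff clone, gs1_C8, it stood at 0.957, 1.71 and 1.11 CPM, a range that covered the parental libraries (log2 fold change -0.04 ± 0.24, adjusted p = 0.91). In gs1B8 it stood at 0.697, 0.953 and 0.816 CPM, all below the parental libraries, and the change of -0.65 ± 0.25 missed the threshold (adjusted p = 0.059). The estimates in gs2_B4 (-0.46 ± 0.25), gs1_B11 (-0.28 ± 0.25) and gs2_F6 (-0.28 ± 0.25) did not pass either. At these counts the 95% interval in gs1_B11 ran from -0.80 to 0.24 on the log2 scale, and changes within it are not excluded.

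Esrra, the estrogen-related receptor alpha (ENSMUSG00000024955.15, chromosome 19, 6910977 to 6921840, minus strand), fell in 1 clone of Drp1 and 1 of Mff. It stood at 15.1, 16.5 and 16.7 CPM in parental cells, at 12.1, 12.5 and 14.3 CPM in gs2_B4 and at 12.2, 11.3 and 12.3 CPM in gs1_B4. Esrra fell by 0.31 ± 0.09 on the log2 scale in gs2_B4 (adjusted p = 0.0056) and by 0.43 ± 0.09 in gs1_B4 (0.00042), with libraries below all the parental ones in both. In gs1_C8 it stood at 16.8, 18.1 and 17.7 CPM, above all the parental libraries, with a log2 fold change of 0.12 ± 0.09 that did not pass (adjusted p = 0.26). In gs1B8 its libraries spread from 11.9 to 16.3 CPM and did not pass (adjusted p = 0.13), although they did without gs1B8 replicate 3 (0.020). Trmt112, which shares 73 exonic bases with Esrra on the opposite strand and was looked at after its values were seen, fell by 0.56 in gs2_B4 and by 0.38 in gs1_B4 on the log2 scale. Trmt112 also fell by 0.56 (adjusted p = 1.9e-07) in gs1_C8, where Esrra stood above parental. In gs1B8 Trmt112 fell by 0.183 (adjusted p = 0.02), where the estimate of Esrra was -0.181. The part of shared reads in the Esrra values was not tested.

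A change was counted for a genotype if its clones both passed with 1 direction. Both clones were tested against the same 3 parental libraries, so their passes are not independent. Whatever else the clones of a genotype share cannot be told apart from the knockout. The codes of both Mff clones begin with gs1, where the other pairs hold a gs1 and a gs2 code. By that rule Twnk was lower in the Drp1 clones, and Tfam and Ssbp1 in the Fis1 clones. Tfam, Polrmt, Twnk, Ssbp1 and Nrf1 were lower in the Mff clones. Of all tested genes, 12.1% were lower in both Drp1 clones, 9.02% in both Fis1 clones and 11.3% in both Mff clones, against 1, 2 and 5 of the 10 genes here. The Drp1 and Fis1 counts are near those shares, and the Mff count is above its share. None of the 10 was higher in both clones of a genotype, where the percentage of all genes was 7.94 for Drp1, 5.94 for Fis1 and 7.37 for Mff. None passed in the same direction in all 6 clones, as 2.64% of all tested genes did, and Ssbp1 came nearest with 5 of 6. The Mff count fell to 3 without parental replicate 2 and without gs1_C8 replicate 3, the Fis1 count fell to 1 without parental replicate 1 and without gs2_F6 replicate 2, and the Drp1 count rose to 2 without parental replicate 2 and without gs1B8 replicate 3.

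**Figure D3:**
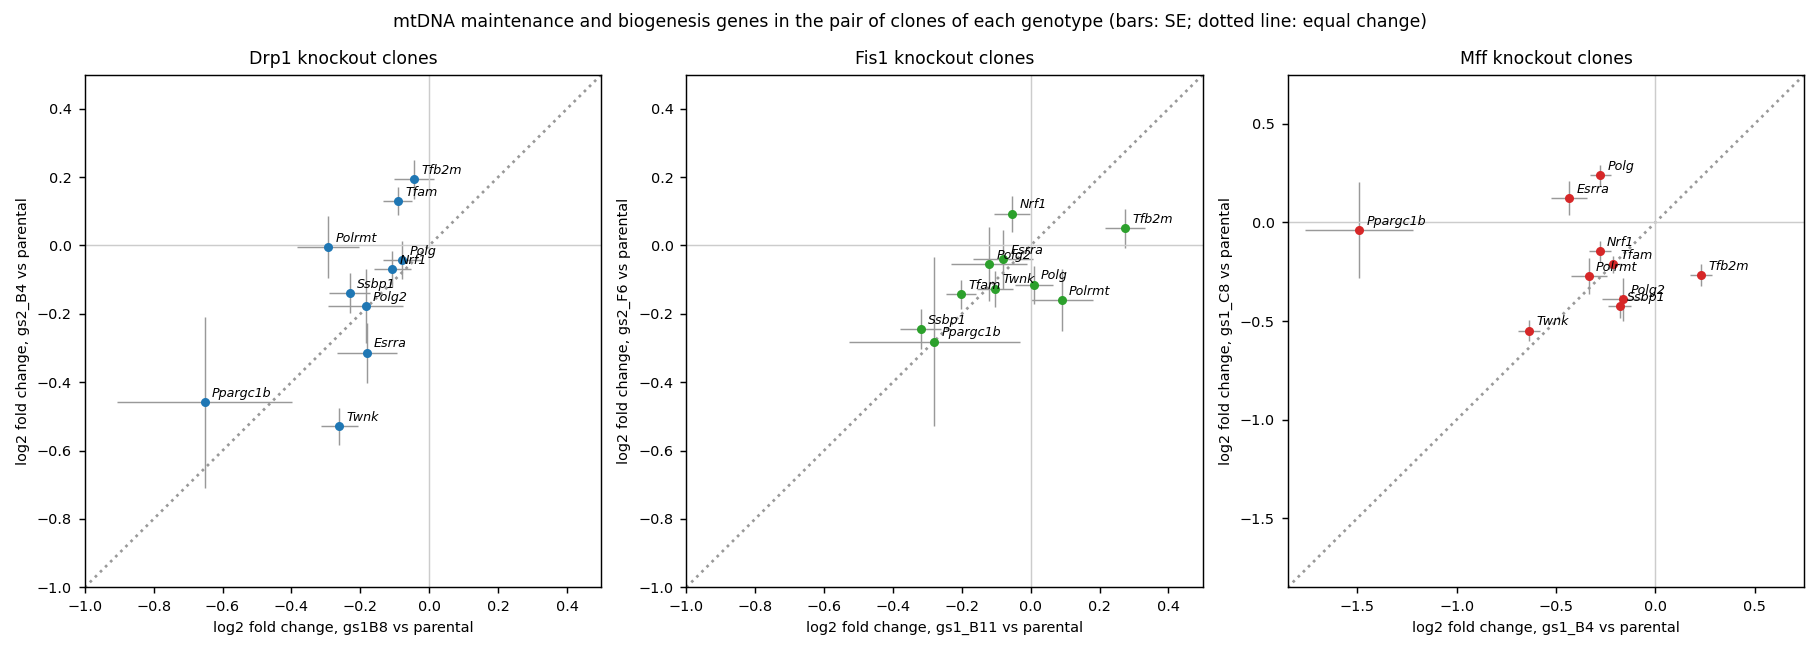
Log2 fold change of each gene against parental cells in one clone (x axis) and the other clone (y axis) of a genotype, with SE bars and a dotted line of equal change. Twnk lies far below 0 on both axes for the Mff clones, at -0.64 and -0.55, while Ppargc1b lies at -1.49 in gs1_B4 and near 0 in gs1_C8.

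The clones of a genotype were then tested against each other, since a gene that passes in one clone and misses in the other is not thereby shown to differ. Between the Drp1 clones 4 of the 10 genes differed (41.0% of all genes): Tfam, Polrmt and Tfb2m were higher in gs2_B4 than in gs1B8, and Twnk was lower, at 83.1% of its gs1B8 level. Between the Fis1 clones 3 differed (47.6% of all genes), with Polrmt and Tfb2m lower and Nrf1 higher in gs2_F6 than in gs1_B11. The Mff clones differed most, in 6 genes (54.7% of all genes). Relative to gs1_B4, gs1_C8 had more Ppargc1b (2.73-fold, adjusted p = 0.00011), Esrra (1.47-fold, 1.7e-05), Polg (1.43-fold, 1e-07) and Nrf1 (1.10-fold, 0.040), and less Tfb2m (70.9% of the level, 2.9e-07) and Ssbp1 (84.3%, 0.0014). Twnk (log2 difference 0.09 ± 0.05, adjusted p = 0.19) and Tfam (0.00 ± 0.04, adjusted p = 0.99) did not pass between these clones. Each of these 3 shares is close to or under the share of all genes or, for the Mff clones, slightly above it.

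To compare genotypes with the clone as replicate, the counts of each clone's libraries were added up, giving 2 sums for every genotype over 15513 tested genes, and edgeR called 0 of the 10 genes in each of the 3 comparisons. The percentage of all genes that passed was 0 for Drp1 against Fis1, 0.00645 (1 gene) for Drp1 against Mff and 0.00645 (1 gene) for Fis1 against Mff. At an unadjusted p below 0.05 the number of the 10 genes was 0, 0 and 1. That 1 was Twnk, higher in the Fis1 than in the Mff clones by 0.46 ± 0.15 on the log2 scale (95% interval 0.09 to 0.82, adjusted p = 0.54). Twnk in Drp1 against Fis1 clones differed by -0.26 ± 0.15 (interval -0.63 to 0.10). With clones as the replicates, a difference between genotypes was therefore not shown for any of the 10, and the intervals allow differences of the size seen against parental cells.

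With leflunomide, 0 of the 10 genes passed, where 2.79% of all 12603 tested genes did, and 1 of them, Esrra, had an unadjusted p below 0.05, as 20.9% of all genes had. DESeq2, limma voom and voom with quality weights also called 0. Esrra stood at 12.5, 14.9 and 12.9 CPM with DMSO and at 12.02, 10.4 and 9.58 CPM with Leflu (log2 fold change -0.33 ± 0.12, 95% interval -0.62 to -0.05, adjusted p = 0.18). It passed with all 27 libraries in 1 fit (adjusted p = 0.024). Nrf1 stood at 36.0, 39.2 and 36.3 CPM with DMSO and at 32.1, 33.7 and 34.7 CPM with Leflu (-0.15 ± 0.07, adjusted p = 0.27). Twnk stood at 48.1, 46.5 and 51.3 CPM against 45.3, 46.0 and 44.0 CPM (-0.11 ± 0.06, adjusted p = 0.36).

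The other genes did not pass with leflunomide either. Tfam stood at 76.0, 84.6 and 67.3 CPM with DMSO, the widest spread of any group for this gene, and at 74.1, 84.1 and 76.5 CPM with Leflu (0.04 ± 0.09, 95% interval -0.17 to 0.26). Its lowest library was DMSO replicate 3, the one rich in ribosomal RNA, and without it the estimate was below 0 and did not pass. Polrmt stood at 13.04 ± 0.40 and 15.04 ± 2.00 CPM, Polg at 56.4 ± 2.2 and 59.0 ± 6.7 CPM, Ssbp1 at 57.5 ± 4.3 and 54.0 ± 7.7 CPM and Tfb2m at 53.7 ± 2.5 and 51.2 ± 2.8 CPM (SD, n = 3, DMSO then Leflu). Polg2 stood at 7.90 ± 0.50 and 7.51 ± 0.22 CPM and Ppargc1b at 0.976 ± 0.160 and 0.839 ± 0.211 CPM. The DMSO and parental cells come from different arms and were not tested against each other.

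Across the knockout arm the group means of Ppargc1b ranged 2.90-fold, those of Twnk 1.55-fold, Esrra 1.47-fold, Tfb2m 1.45-fold and Polg 1.43-fold, and those of Polg2, Ssbp1, Polrmt, Nrf1 and Tfam between 1.27-fold and 1.34-fold. The median range of the 9732 genes with a mean of at least 5 CPM was 0.554 on the log2 scale, above that of 7 of the 10 genes and just below that of Esrra (0.556). As a description over 7 group means that share 1 fit and scaling, Ppargc1b went with Esrra (Pearson r = 0.865), Polg with Esrra (0.814) and Twnk with Nrf1 (0.785), while Tfb2m and Esrra ran against each other (-0.691). Among these 9732 genes, the group means most like those of Twnk were those of Lsm6 (r = 0.982), Pdcd11 (0.977) and Srcap (0.977). For Esrra they were those of Syt7 (0.976), Dstyk (0.976) and Mrpl57 (0.975). These r are the highest of a search through 9732 genes over 7 group means, and they were not tested.

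The wider machinery was read from 6 lists of further genes, against parental cells and by the rule of both clones. By that rule 12.1% of all tested genes were lower in the Drp1 clones, 9.02% in the Fis1 clones and 11.3% in the Mff clones. Higher in both clones were 7.94%, 5.94% and 7.37%. A gene named below for 1 genotype may also have passed in single clones of the others. In the list of mtDNA replication and repair (16 genes, all tested), 3 were lower in both Drp1 clones and 0 higher. These were the nuclease gene Dna2 (-0.27 and -0.38 on the log2 scale in gs1B8 and gs2_B4), the primase-polymerase gene Primpol (-0.23 and -0.60) and the flap endonuclease gene Fen1 (-0.14 and -0.49). In the Fis1 clones Primpol (-0.27 and -0.33) and Dna2 (-0.34 and -0.23) were lower and the repair endonuclease gene Apex1 higher (0.44 and 0.20, in gs1_B11 and gs2_F6). Apex1 was lower in both Mff clones (-0.36 and -0.28, in gs1_B4 and gs1_C8), with Fen1 (-0.17 and -0.29). Dna2 fell most in the Mff clone gs1_C8 (-0.70, adjusted p = 9.5e-07). Primpol rose in gs1_B4 (0.34), and Apex1 rose in gs2_B4 (0.23). The Drp1 calls were fragile in gs1B8. Fen1 was lost there without any of 4 single libraries or under 3 other settings (adjusted p up to 0.28), Primpol without any of 3 or under 3 settings (up to 0.17), and Dna2 without gs1B8 replicate 1 or with all 27 libraries in 1 fit (up to 0.11). Dna2 in gs2_F6 was lost without any of 5 single libraries (up to 0.13) and with all 27 in 1 fit (0.17), Primpol in gs1_B11 with all 27 (0.064), and Fen1 in gs1_B4 under 2 settings (up to 0.17). The median of the list lay between -0.13 and -0.04 in the 6 clones, against -0.02 to 0.00 for all genes.

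The list of mitochondrial transcription and RNA processing (23 genes) did not lean to 1 side in every clone. In both Drp1 clones 1 was higher and 1 lower, and in both Fis1 clones 3 were higher and 0 lower. In both Mff clones 2 were higher and 2 lower. Of all genes, 7.94%, 5.94% and 7.37% were higher and 12.1%, 9.02% and 11.3% lower in both Drp1, Fis1 and Mff clones. Mtpap, the mitochondrial poly(A) polymerase, stood at 39.8 ± 2.2 CPM in parental cells, 54.0 ± 1.7 in gs1_B11 and 51.5 ± 2.2 in gs2_F6, and rose by 0.44 and 0.37 on the log2 scale. Mterf4 (0.27 and 0.30) and the RNA-stabilizing protein gene Lrpprc (0.26 and 0.14) rose in the same clones, and Lrpprc rose in the Drp1 clones as well (0.12 and 0.22). Hsd17b10, a subunit of mitochondrial RNase P, fell in both Drp1 clones (-0.27 and -0.69) and both Mff clones (-0.63 and -0.28). It fell most in the Fis1 clone gs1_B11 (-0.93, adjusted p = 2.8e-08), and gs2_F6 stood 0.95 above gs1_B11 (adjusted p = 1.5e-08). The call of Hsd17b10 was lost in gs1B8 without any of 4 single libraries (adjusted p up to 0.082) and in gs1_C8 without replicate 3 (0.085). That of Lrpprc was lost in gs1B8 without any of 3 libraries or under 2 settings (up to 0.11) and in gs2_F6 without any of 2 libraries (up to 0.099). Tbrg4 fell (-0.34 and -0.24) and Fastkd2 rose (0.26 and 0.21) in the Mff clones. In single clones of the other genotypes, Fastkd2 rose in gs2_B4 (0.26) and gs1_B11 (0.27) and Mtpap in gs2_B4 (0.26). Mterf4 rose in gs2_B4 (0.33) and gs1_B4 (0.49), and Lrpprc fell in gs1_C8 (-0.29).

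Of nucleotide supply for mtDNA, 14 of 15 genes were tested, and 3 were lower and 1 higher in both Drp1 clones. In both Fis1 clones 5 were lower and 1 higher, and in both Mff clones 0 lower and 1 higher. The shares of all genes were 12.1%, 9.02% and 11.3% lower and 7.94%, 5.94% and 7.37% higher in both Drp1, Fis1 and Mff clones. Tk2, the mitochondrial thymidine kinase, stood at 10.8 ± 0.7 CPM in parental cells and at 6.13 ± 0.80 CPM in gs1B8, 5.45 ± 0.26 in gs2_B4, 5.46 ± 0.54 in gs1_B11 and 5.97 ± 0.17 in gs2_F6, against 9.83 ± 0.53 in gs1_B4 and 8.87 ± 1.39 in gs1_C8. Tk2 fell by 0.81 and 0.98 on the log2 scale in the Drp1 clones and by 0.97 and 0.85 in the Fis1 clones. In the Mff clones it fell by 0.27 in gs1_C8 (adjusted p = 0.048) and was -0.13 ± 0.11 in gs1_B4 (adjusted p = 0.36). The call in gs1_C8 was lost without any of 5 single libraries (adjusted p up to 0.33) and under 6 of 8 other settings, DESeq2 among them (up to 0.13). Dguok, the mitochondrial deoxyguanosine kinase, fell in the Fis1 clones (-0.52 and -0.73), although its call in gs1_B11 was lost without parental replicate 1 or gs1_B11 replicate 3 (adjusted p up to 0.081). Dut, which hydrolyses dUTP, fell in the Drp1 clones (-0.27 and -0.64), in the Fis1 clone gs1_B11 (-0.55) and in the Mff clone gs1_C8 (-0.38). Sucla2, a succinyl-CoA ligase subunit, rose in the Drp1 clones (0.27 and 0.22) and the Fis1 clones (0.44 and 0.44). In the Mff clones Sucla2 fell in gs1_B4 (-0.27) and rose in gs1_C8 (0.15). The inner-membrane protein gene Mpv17 rose in the Mff clones (0.54 and 0.37) and fell in the Fis1 clones (-0.17 and -0.24). Its Fis1 calls were lost without any of 3 single libraries in gs1_B11 (adjusted p up to 0.27) and without parental replicate 3 in gs2_F6 (0.051).

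Of the other nuclear biogenesis regulators, 12 of 19 were tested. In both Mff clones 5 were lower and 0 higher, in both Drp1 clones 1 lower and 1 higher, and in both Fis1 clones 0 either way. Of all genes, 11.3% were lower and 7.37% higher in both Mff clones, 12.1% and 7.94% in Drp1, and 9.02% and 5.94% in Fis1. Gabpa, which encodes the DNA-binding subunit of GABP, stood at 116.3 ± 6.2 CPM in parental cells, 91.5 ± 3.5 in gs1_B4 and 78.6 ± 2.5 in gs1_C8, and fell by 0.35 and 0.57 on the log2 scale. Gabpb2 (-0.36 and -0.47) and the PGC-1-related coactivator gene Pprc1 (-0.42 and -0.40) fell with it. The other 2 were Sirt1 and Hcfc1, named because they complete the count and not by the rule for named genes. Pprc1 (-0.50) and Gabpb2 (-0.46) also fell in the Drp1 clone gs2_B4, and Gabpb2 in the Fis1 clone gs1_B11 (-0.37). In the Drp1 clones the nuclear receptor gene Ppard rose (0.59 and 0.59) and Gabpb1 fell (-0.25 and -0.18). The call of Gabpb1 was lost in gs2_B4 with no low-count filter (adjusted p = 0.051). Ppard also rose in gs1_B11 (0.32) and gs1_B4 (0.39) and fell in gs1_C8 (-0.58, adjusted p = 4.7e-06). Gabpb1 also fell in gs1_B11 (-0.30) and rose in gs1_B4 (0.15).

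Genes known as targets of ERR and PGC-1 (14 of 15 tested) were lower in both clones in 5 cases for Drp1, 0 for Fis1 and 6 for Mff. They were higher in both clones in 0 cases for any genotype. Of all genes, 12.1%, 9.02% and 11.3% were lower and 7.94%, 5.94% and 7.37% higher in both Drp1, Fis1 and Mff clones. Cs, citrate synthase, stood at 441.4 ± 14.2 CPM in parental cells, 354.8 ± 5.0 in gs1_B4 and 355.2 ± 6.1 in gs1_C8. It fell by 0.32 and 0.31 on the log2 scale there and by 0.20 and 0.21 in the Drp1 clones. Its largest fall was in the Fis1 clone gs1_B11 (-0.55, adjusted p = 1.9e-10), and gs2_F6 stood 0.47 above gs1_B11 (adjusted p = 1.2e-09). Cox4i1, a cytochrome c oxidase subunit, fell in the Drp1 clones (-0.41 and -0.62), the Mff clones (-0.31 and -0.40) and the Fis1 clone gs2_F6 (-0.22). The fatty acid oxidation gene Acadm fell in the Mff clones (-0.35 and -0.44), in gs2_B4 (-0.46) and in gs1_B11 (-0.36). The Drp1 count includes Cycs, cytochrome c (-0.24 and -0.20), whose calls were lost without any of 4 single libraries in each clone, with adjusted p up to 0.28 and 0.39, and under 3 and 7 other settings. The list's median was -0.17 in gs1B8, -0.15 in gs2_B4, -0.15 in gs1_B4 and -0.25 in gs1_C8. In gs1_B11 and gs2_F6 it was -0.05 and -0.08, and for all genes it lay between -0.02 and 0.00.

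**Figure D4:**
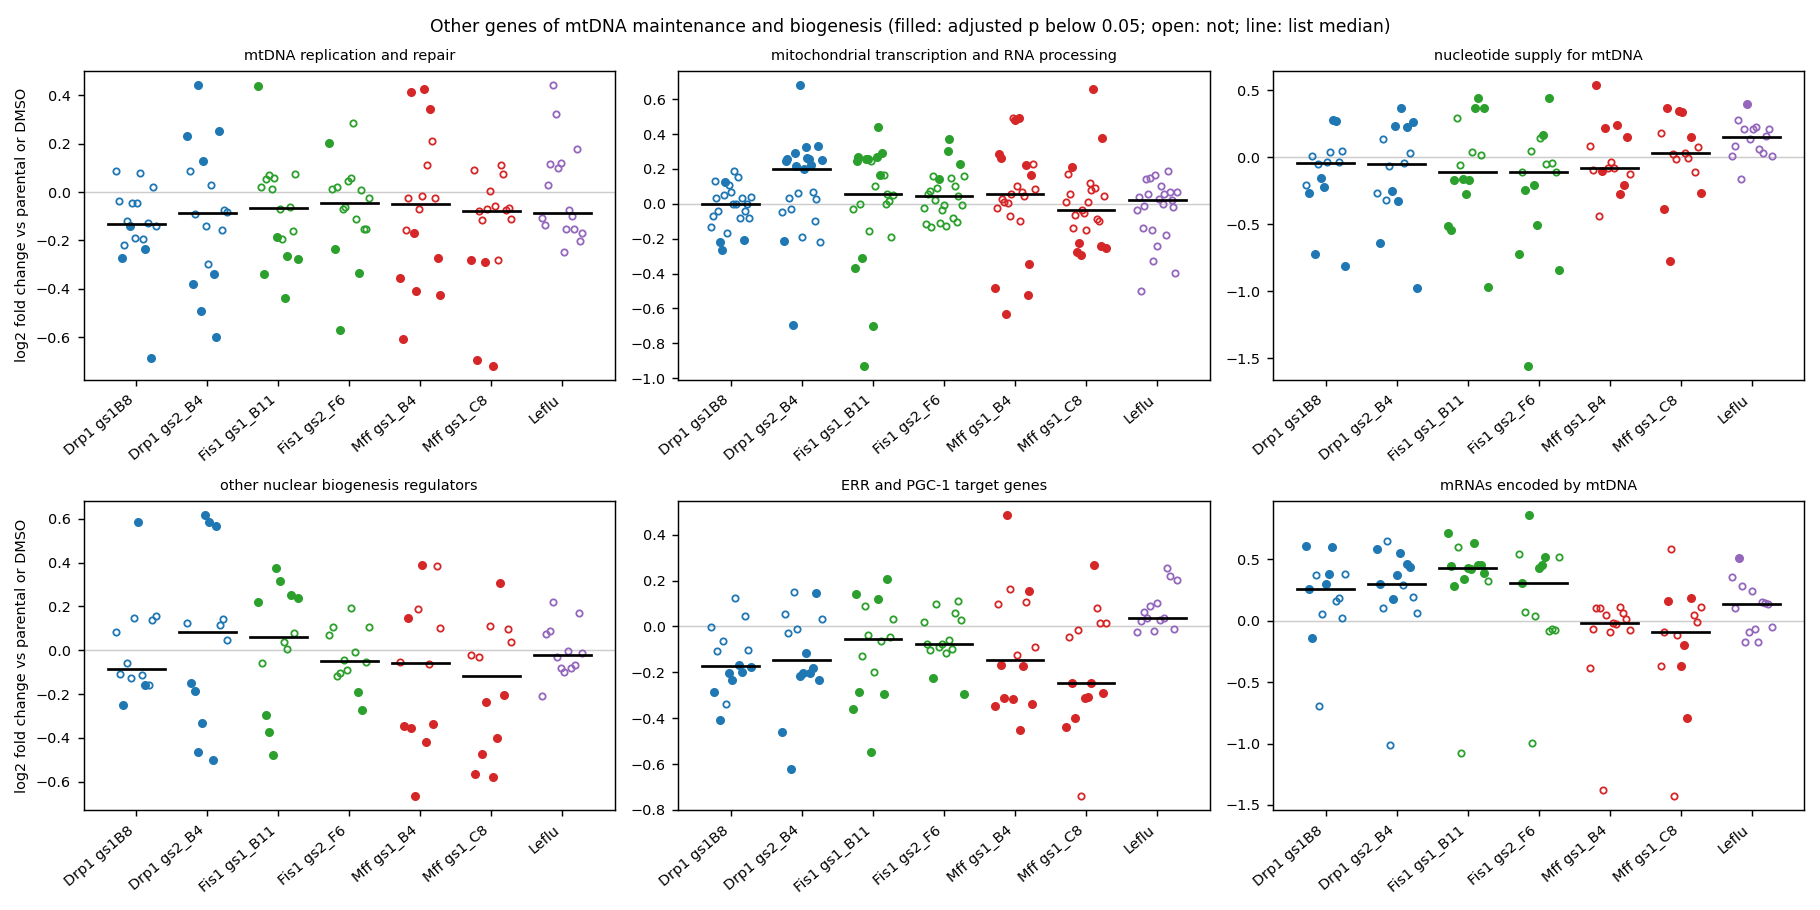
Log2 fold change of each tested gene of the 6 further lists in each clone against parental and with Leflu against DMSO, filled where the adjusted p was below 0.05, with the list median as a line. The medians of mRNAs encoded by mtDNA lie between 0.26 and 0.43 in the Drp1 and Fis1 clones and at -0.02 and -0.09 in the Mff clones, and the lowest points of nucleotide supply lie in the Fis1 and Drp1 clones.

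The 13 mRNAs made from mtDNA itself were measured as well. Their summed level was 26540 ± 1270 CPM in parental cells, 29110 ± 1020 in gs1B8, 32110 ± 1530 in gs2_B4, 34490 ± 1440 in gs1_B11, 30480 ± 846 in gs2_F6, 26820 ± 806 in gs1_B4 and 25550 ± 886 in gs1_C8 (SD, n = 3). In both Drp1 clones 4 were higher and 0 lower, in both Fis1 clones 4 higher and 0 lower, and in both Mff clones 0 either way. Of all genes, 7.94% were higher and 12.1% lower in both Drp1 clones, 5.94% and 9.02% in Fis1, and 7.37% and 11.3% in Mff. Taken alone, gs1_C8 had 2 higher and 3 lower, gs1_B4 had 0 either way, and gs1B8 had 5 higher and 1 lower. In these clones 46.7%, 47.7% and 29.5% of all genes passed, in either direction. In gs1_C8 mt-Nd3 fell by 0.795 on the log2 scale (adjusted p = 0.00035) and mt-Nd1 by 0.369 (2.7e-06), while mt-Co1 rose by 0.163 (0.0065). The summed level of every Drp1 and Fis1 library lay above every parental library, and the sums of both Mff clones overlapped the parental ones. The Drp1 count includes mt-Atp6, a subunit of ATP synthase (0.61 and 0.59), whose calls were lost without any of 5 single libraries in gs1B8 (adjusted p up to 0.19) and any of 4 in gs2_B4 (up to 0.22). The Fis1 count includes mt-Nd3, a subunit of complex I (0.64 and 0.52), whose call in gs2_F6 was lost without parental replicate 2 or gs2_F6 replicate 3 (up to 0.075). The number of mtDNA copies was not measured here.

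With leflunomide these lists gave 2 calls, where 2.79% of all 12603 tested genes passed. Rrm2, a subunit of ribonucleotide reductase, rose by 0.40 ± 0.08 on the log2 scale (adjusted p = 0.041), and mt-Co1, encoded by mtDNA, rose by 0.51 ± 0.11 (adjusted p = 0.050 rounded, below the threshold). The call of Rrm2 was lost without any of 5 of the 6 libraries (adjusted p up to 0.19), and that of mt-Co1 without any of 5 (up to 0.22) and with DESeq2 size factors, no low-count filter or the serial run as a block (up to 0.10). None of the genes for replication, transcription, nuclear regulation or ERR and PGC-1 targets passed.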

How the data were processed

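Poly-A RNA libraries (KAPA RNA HyperPrep, per the labels' protocols) of 27 4T1 samples were quantified by the authors with RSEM after Trimmomatic 0.35 on GRCm38 (mm10), per the submitters' processing notes. Of the aligner, the RSEM version, the annotation and the use of strand, each is not given in the sources used here. As deposited, the values are expected counts by gene, not scaled between libraries (91.5% of them whole), and they were rounded to whole numbers. The largest values are deposited with only 3 significant digits. Column names give the clone code or treatment and a serial number, so replicates were numbered in serial order, and which code is which numbered clone of the labels is not known.

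Counts were scaled with TMM factors, filtered with filterByExpr and tested with edgeR 4.0.16 in R 4.3.3 (quasi-likelihood F test, two-sided, Benjamini-Hochberg over all tested genes, adjusted p below 0.05). The 21 libraries of the knockout arm shared 1 fit (13940 genes) and the 6 of the drug arm another (12603 genes). Levels are CPM on edgeR-scaled library sizes, and SEs are those of the fitted coefficients. Coordinates come from the deposited table and transcripts from GENCODE M21, both GRCm38, and RefSeq promoter windows are GRCm38.p6. The procedure was tested on simulated data. Alternatives used DESeq2 1.42.0, limma 3.58.1 (voom), other fits and scalings, and left out each library in turn. Figures were made with matplotlib 3.10.9, pandas 2.3.3 and numpy 2.4.6 under Python 3.11.15.

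The 10 genes and the 6 further lists were chosen with earlier results of these data known. By rule the text names the 10 genes, the targeted genes and Dhodh. Of each list it names up to 3 genes per genotype with the largest change in both clones, and called genes of the drug arm. It also names the 3 genes most like Twnk and Esrra by Pearson r of group means, among the 9732 genes with a mean of at least 5 CPM.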

Additional observations from a re-analysis of the deposited data

Results flagged for a closer look

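The clones of 1 genotype differed from each other, by the test of the difference itself in the 21-library edgeR fit, for 13 of the 30 pairs of gene and genotype. Such differences are common among all tested genes. The share was 41.0% between the Drp1 clones, 47.6% between the Fis1 clones and 54.7% between the Mff clones. Between the Drp1 clones the log2 difference (gs2_B4 minus gs1B8) was 0.22 for Tfam, 0.29 for Polrmt, 0.24 for Tfb2m and -0.27 for Twnk. Between the Fis1 clones (gs2_F6 minus gs1_B11) it was -0.25 for Polrmt, -0.22 for Tfb2m and 0.15 for Nrf1. Between the Mff clones (gs1_C8 minus gs1_B4) it was 1.45 for Ppargc1b, 0.56 for Esrra, 0.51 for Polg, 0.13 for Nrf1, -0.50 for Tfb2m and -0.25 for Ssbp1. Tfb2m was the 1 gene that differed in all 3 pairs. The difference in Nrf1 was lost without any of 4 single libraries for Fis1 (adjusted p up to 0.14) and any of 5 for Mff (up to 0.37). That in Polrmt was lost without gs1B8 replicate 2 or gs2_B4 replicate 2 (up to 0.078) for Drp1. For Fis1 it was lost without gs1_B11 replicate 1, gs2_F6 replicate 1 or gs2_F6 replicate 3 (up to 0.20).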

How the results depend on the processing

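Of the 130 log2 fold changes of the 10 genes, the 42 that passed kept their direction under every alternative run. Of the 88 that did not pass, 15 changed sign under at least 1 alternative, all of them with an estimate of at most 0.065 in size, and none passed where its sign had changed. Among these, Polrmt in gs2_B4 went from -0.01 up to 0.04, Ppargc1b in gs1_C8 from -0.04 up to 0.14 and Tfam with Leflu from 0.04 down to -0.04. The number of the 10 genes that passed, leaving out 1 library at a time, ran from 2 to 4 in gs1B8, 3 to 4 in gs2_B4, 3 to 4 in gs1_B11, 1 to 2 in gs2_F6, 8 to 9 in gs1_B4 and 6 to 8 in gs1_C8. It ran from 3 to 5 between the Drp1 clones, 1 to 3 between the Fis1 clones (1 without gs1_B11 replicate 1) and 5 to 7 between the Mff clones, and was 0 for Leflu and between genotypes. Genes lower in both clones ran from 1 to 2 for Drp1, 1 to 2 for Fis1 and 3 to 5 for Mff. With no low-count filter, with only the clone and parental libraries in the fit, or with all 27 libraries in 1 fit, gs2_F6 had 1, both Fis1 clones shared 1 and both Mff clones shared 3. With all 27 libraries Leflu had 1. Contrasting clone means in the 21-library fit, which takes libraries in place of clones as replicates, gave 4 for Drp1 against Fis1, 5 for Drp1 against Mff and 6 for Fis1 against Mff. Scaling by column totals moved the range of group means to 0.315 for Polrmt, 0.411 for Tfam, 0.475 for Tfb2m and 0.279 for Nrf1 on the log2 scale, so that Tfam no longer ranged least. Replicate numbers of the labels are not in the column names, so the serial run of columns served as a replicate block. With that block 4 genes passed in gs1B8 in place of 3, the added one being Ppargc1b (adjusted p = 0.033). Libraries of 1 run did not all vary together (63 pairs, r of -0.10 to 0.30, 22 above 0.1), although 19 of 21 lay closest to their own run. Depth limits Ppargc1b most, at 8 to 47 counts per library.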
